A study of Mus musculus with 6 samples.

Results

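The JAK kinases, STAT3, STAT5 and the SOCS-family inhibitors form the signalling core behind the cytokine receptors of lymphoid progenitors. Here 10 genes of this core were followed in early thymic progenitors, the first cells of the T lineage that can be found in the thymus. The members are the kinase genes Jak1, Jak2 and Jak3, the transcription factor genes Stat3, Stat5a and Stat5b, and the feedback inhibitor genes Cish, Socs1, Socs2 and Socs3. They were chosen by name, and every probe set that the array annotation assigns to that symbol alone was used. This gave 25 of the 45037 probe sets tested, and 10 of 18193 genes. A further 2 probe sets assigned to Jak3 together with another gene were not used.

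RNA was measured on Affymetrix Mouse Genome 430 2.0 arrays, 3 of Tcf1-/- mice and 3 of Tcf1-/+ mice, all on the C57Bl/6 background and killed at 10 weeks. Tcf1, encoded by Tcf7, binds DNA and can act together with beta-catenin. The sorted cells lacked lineage markers and CD25 and carried CD44 and kit, and on average 1000 cells gave 3 ng of total RNA, which was amplified before labelling. The titles name the controls Tcf1-/+, but their genotype field reads wild type, and the labels leave this unresolved. The number of animals behind each array is not stated, nor is it said how the Tcf1 allele was made, and p-values measure only the spread between these arrays. Tcf7 itself was not analysed here.

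In the textbook pathway, a cytokine such as interleukin 7 joins receptor chains that carry JAK1 and JAK3, the kinases phosphorylate the receptor and the STATs, and paired STAT5 proteins enter the nucleus and bind DNA. JAK2 serves receptors of the erythropoietin kind, and STAT3 acts after receptors that contain gp130. STAT proteins switch on Cish and the Socs genes, whose products bind the receptors or the kinases and dampen the signal, so that transcripts of these inhibitors are commonly read as a trace of recent signalling. Interleukin 7 sustains survival and growth of early thymocytes.

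STAT3 and STAT5 dimers bind a short palindrome with the core TTCNNNGAA, where N is any base. The core was searched in the RefSeq promoter sequences of mouse assembly GRCm38.p6, which run from 250 bases before to 50 bases after an annotated start of transcription. Because the core is its own reverse complement, a search of 1 strand covers both, and matches were allowed to overlap. Promoters were matched by symbol for 9 of the 10 members, and Socs2 had no entry. Among the 11 member promoters the core was found in those of Cish and Socs3, against 8.3% of all 32851 promoters. The Cish promoter held 2 matches, and 0.457% of all promoters held 2 or more. The stretches that carry them are shown because Cish is the member with the largest difference on its brightest probe set. Capitals mark the matches, and both sequences read 5′ to 3′ on the strand of the gene.
Cish, chr9:107296559-107296678, plus strand: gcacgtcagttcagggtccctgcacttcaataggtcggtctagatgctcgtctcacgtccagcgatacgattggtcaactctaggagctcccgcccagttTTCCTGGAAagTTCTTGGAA
Socs3, chr11:117969502-117969530, minus strand: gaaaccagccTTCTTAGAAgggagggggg
The first Cish match covers bases 1 to 9 after the annotated start and the second covers bases 12 to 20. The Socs3 match lies from base -154 to base -146 before an annotated start. The sequences were not measured in this study, and a match does not show that a STAT protein was bound there.

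**Figure D1:**
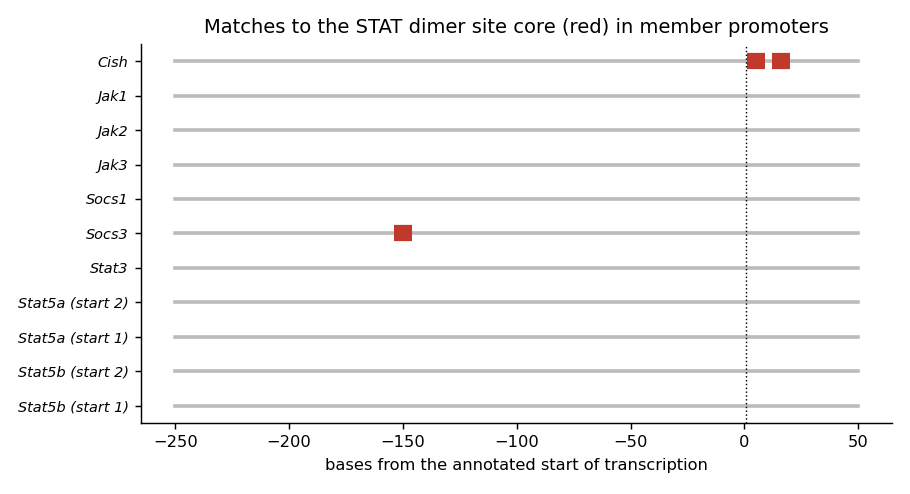
Position of each match to the STAT core (red) in the promoters of the members, in bases from the annotated start (dotted line), with grey lines for the 300 bases searched. Stat5a and Stat5b each have 2 annotated starts in the table. Only the lines of Cish, with 2 matches, and Socs3, with 1, carry red blocks.

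All values below are log2 levels per probe set, so a step of 1 is a doubling. Each gene stands by the probe set with the highest mean of all 6 arrays, called its brightest, and levels of different probe sets are not compared. Differences are Tcf1-/- minus Tcf1-/+, with limma's standard error (SE), and adjusted p-values are Benjamini-Hochberg values over all 45037 probe sets. Background is the 95th percentile of 27 control probe sets for bacterial transcripts, at 5.21. No probe set on the array passed an adjusted p of 0.05, a share of 0%, and 2917 had an unadjusted p under 0.05. The unmoderated test with pooled variance also called 0, with 2565 at an unadjusted p under 0.05. None of the 25 member probe sets passed, and the lowest adjusted p among them was 0.639 from limma. The values are therefore given as descriptions of 3 arrays against 3, where an exact permutation test allows no p below 0.1.

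The array of Tcf1-/- replicate 2 correlated with the other 5 between 0.87 and 0.8934 over all probe sets, and the other pairs between 0.9128 and 0.9331. On control probe sets for the transferrin receptor transcript, the 3′ level minus the 5′ level was 0.05 on that array. It was between -1.08 and -0.62 on the other 5, and its bearing on the members was not tested. The mean level of the Y-linked genes Kdm5d, Eif2s3y and Uty was between 8.42 and 9.39 on Tcf1-/- replicates 2 and 3 and Tcf1-/+ replicate 2, and between 4.01 and 5.0 on the others. Xist, transcribed from the inactive X chromosome, was at 5.12 on Tcf1-/+ replicate 2 and at 12.87 or above on the others, so Tcf1-/- replicates 2 and 3 had high signals of both kinds. All 7 markers of the sort gate and of early progenitors were above background in both genotypes, among them Ptprc and Kit. Transcripts of Il2ra, which encodes CD25, were also above background, though the sorted cells lacked CD25. Il2ra was at 10.28 in Tcf1-/- and 9.59 in Tcf1-/+ on average.

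Cish encodes CIS, an SH2 protein that binds phosphorylated cytokine receptors and is induced through STAT5. It was at 7.51, 8.30 and 7.03 in Tcf1-/- and at 6.23, 6.53 and 6.48 in Tcf1-/+. Every Tcf1-/- array lay above every Tcf1-/+ array, and the Tcf1-/+ arrays lay close together. The means were 7.61 ± 0.64 (SD, n = 3) and 6.41 ± 0.16 (SD, n = 3), a difference of 1.20 (SE 0.35) or 2.30-fold, with a 95% confidence interval of 0.33 to 2.06. The unadjusted p was 0.0146 and the adjusted p 0.639 from limma. Cish had 1 probe set, so no other probe set on the array bears on it. Without Tcf1-/- replicate 2, its highest array, the difference was 0.856. It was 1.15 on the 3 arrays whose Y-linked signal was low, of which only replicate 1 is Tcf1-/-. With that signal in the fit as a covariate it was 1.14.

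For the other inhibitors the genotypes overlapped on the brightest probe sets. Socs1 encodes an inhibitor that blocks the JAK catalytic site. It was at 5.83, 6.21 and 5.77 in Tcf1-/- and at 5.91, 5.57 and 4.81 in Tcf1-/+, a difference of 0.50 (SE 0.33). The Tcf1-/- arrays lay within a narrow band, and Tcf1-/+ replicate 1 reached into it. Without Tcf1-/+ replicate 3, the lowest array, the difference was 0.193. Socs3 encodes an inhibitor of gp130 receptors and their JAKs. Its brightest probe set was at 6.43, 6.43 and 5.04 in Tcf1-/- and at 4.70, 5.81 and 6.06 in Tcf1-/+, a difference of 0.44 (SE 0.54). Low and high arrays occurred in both genotypes, and the difference was 0.0299 without Tcf1-/+ replicate 1, 0.214 and 0.211 without Tcf1-/- replicates 1 and 2, 0.905 without Tcf1-/- replicate 3 and 0.711 without Tcf1-/+ replicate 3. Its other probe sets differed by 0.71 (SE 0.53) and -0.49 (SE 0.58), each with a mean under background in 1 genotype, so the probe sets of Socs3 disagreed in sign.

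Socs2, an inhibitor known from growth hormone signalling, had 6 probe sets. The brightest was at 6.72, 4.35 and 5.89 in Tcf1-/- and at 4.95, 5.56 and 7.86 in Tcf1-/+, a difference of -0.47 (SE 0.93). Single arrays decided this value, since Tcf1-/+ replicate 3 was the highest and Tcf1-/- replicate 2 the lowest. Without Tcf1-/+ replicate 3 the difference was 0.397, and without Tcf1-/- replicate 2 it was 0.18. The second brightest probe set differed by 0.43 (SE 0.41). The other 4 had both means under background, and on 1 of them, 1442586_at, the genotypes did not overlap, with 4.10, 4.27 and 4.60 in Tcf1-/- and 3.39, 3.73 and 4.01 in Tcf1-/+.

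Whether feedback as a whole was raised in Tcf1-/- progenitors can be read from the 4 inhibitor genes together. Of the 4, 3 had a higher and 1 a lower Tcf1-/- mean, with a median difference of 0.47 against 0.04 over all genes, of which 54.3% had a higher Tcf1-/- mean. Averaged over the 4 genes after centring each on its 6 arrays, the level was 0.538, 0.24 and -0.149 in Tcf1-/- and -0.635, -0.213 and 0.22 in Tcf1-/+. The genotypes overlapped on this average. Cish was the only inhibitor gene whose brightest probe set did not overlap between genotypes, against 7.22% of all genes without overlap and with a higher Tcf1-/- mean.

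**Figure D2:**
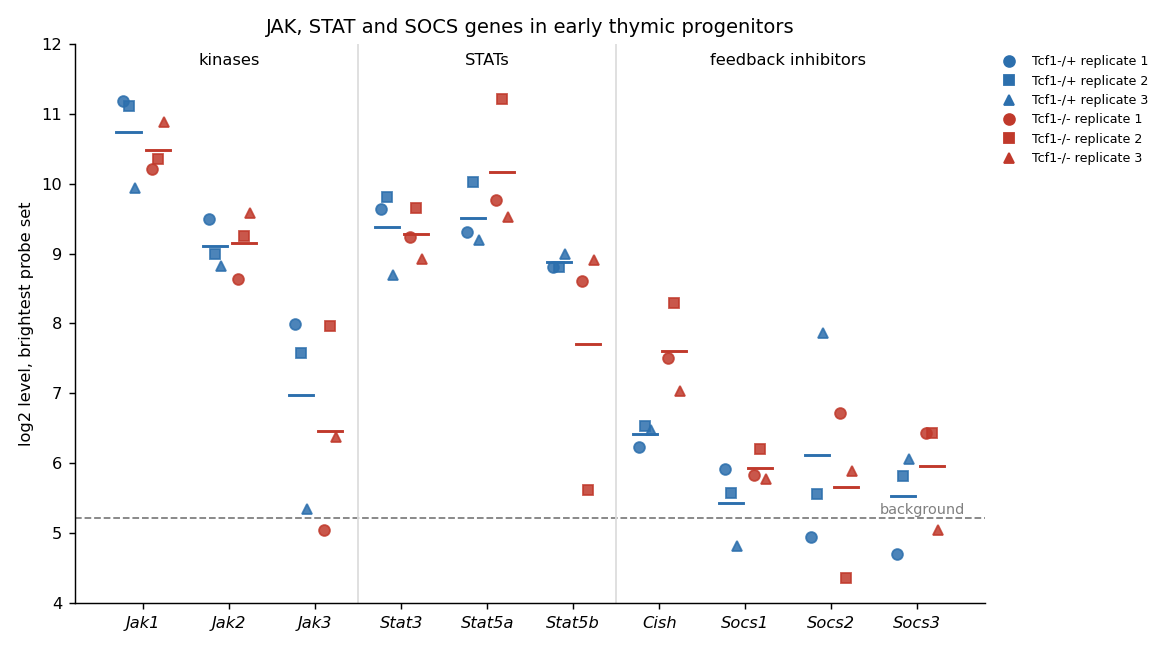
Log2 level of each member's brightest probe set on every array, with Tcf1-/+ in blue and Tcf1-/- in red, symbols for replicates 1 to 3, short bars for genotype means and a dashed line at the background of 5.21. The red points of Cish, from 7.03 to 8.30, all lie above the blue ones, from 6.23 to 6.53, and the genotypes overlap for the other members.

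Of the kinases, Jak1, which pairs with the interleukin 7 receptor chain, was at 10.21, 10.35 and 10.88 in Tcf1-/- and at 11.18, 11.11 and 9.94 in Tcf1-/+. The range of the Tcf1-/- arrays lay inside that of Tcf1-/+. The difference was -0.26 (SE 0.41) on this probe set, 0.24 (SE 0.25) on the second and -0.85 (SE 0.41) on the third, so the direction was not settled. On the brightest, leaving out 1 array gave values from -0.669, without Tcf1-/+ replicate 3, to -0.0466, without Tcf1-/+ replicate 1. Jak3, which binds the common gamma chain, was the most scattered kinase. It was at 5.04, 7.96 and 6.38 in Tcf1-/- and at 7.99, 7.58 and 5.35 in Tcf1-/+. Each genotype held arrays near background and arrays near 8, and the difference of -0.51 (SE 0.98) turned to 0.197 without Tcf1-/- replicate 1.

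Jak2 differed between its own probe sets. The brightest was at 8.63, 9.25 and 9.58 in Tcf1-/- and at 9.49, 9.0 and 8.83 in Tcf1-/+, a difference of 0.05 (SE 0.33), with full overlap of the genotypes. The other, 1421065_at, was at 7.84, 7.83 and 8.59 in Tcf1-/- and at 7.03, 6.97 and 7.71 in Tcf1-/+. There every Tcf1-/- array lay above every Tcf1-/+ array, by 0.85 (SE 0.33) on average, with an adjusted p of 0.746 from limma. Both probe sets were designed on the same transcript record, and they need not detect the same stretch of it.

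Among the STATs, Stat5a was at 9.77, 11.22 and 9.53 in Tcf1-/- and at 9.31, 10.03 and 9.20 in Tcf1-/+, a difference of 0.66 (SE 0.51). Tcf1-/- replicate 2 stood above the rest, and without it the difference was 0.136. On the other Stat5a probe set the difference was -0.21 (SE 0.52). Stat5b, its close relative and neighbour on chromosome 11, was at 8.60, 5.62 and 8.91 in Tcf1-/- and at 8.81, 8.81 and 9.0 in Tcf1-/+. Tcf1-/- replicate 2 was low there, while the other 5 arrays lay within a narrow band, and the difference of -1.16 (SE 0.87) was -0.118 without that array. The other Stat5b probe set differed by 0.00 (SE 0.29), with Tcf1-/- replicate 2 its highest array at 8.51.

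Stat3 had 4 probe sets, whose differences were -0.11 (SE 0.37), 0.12 (SE 0.50), 0.15 (SE 0.36) and 0.32 (SE 0.38) from the brightest to the faintest. The brightest was at 9.24, 9.65 and 8.93 in Tcf1-/- and at 9.64, 9.81 and 8.69 in Tcf1-/+. The range of the Tcf1-/- arrays lay inside that of Tcf1-/+. The 95% confidence interval of the brightest probe set ran from -1.02 to 0.80, so the arrays do not show that Stat3 was alike in both genotypes.

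Over all members, 15 of the 25 probe sets had a higher and 10 a lower Tcf1-/- mean, where 53% of all probe sets had a higher one. The genotypes did not overlap on 3 probe sets, 1 each of Cish, Jak2 and Socs2, all higher in Tcf1-/-. Over the whole array this held for 6.51% of probe sets in that direction and 5.27% in the other, where the members had 0. At an unadjusted p under 0.05 there were 2 member probe sets with a higher mean and 0 with a lower, against 2.97% and 3.51% of all probe sets. The median difference was -0.26 for the 3 kinases and -0.11 for the 3 STATs on their brightest probe sets. Leaving out single arrays moved the kinase median between -0.669 and 0.197 and the STAT median between -0.451 and 0.111, while that of the inhibitors stayed between 0.29 and 0.746.

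**Figure D3:**
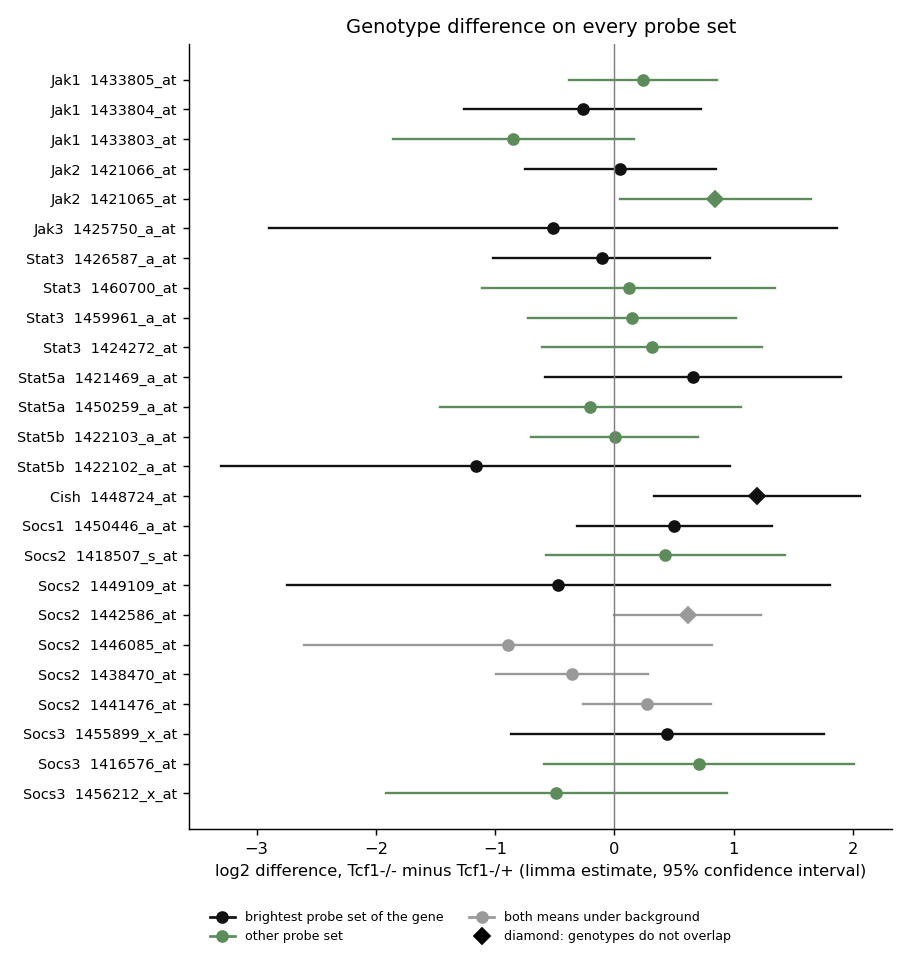
Difference between genotypes on the log2 scale for each of the 25 member probe sets, with limma's 95% confidence interval as a line. Black marks the brightest probe set of a gene, green the others and grey those with both means under background, and diamonds mark the 3 probe sets whose genotypes do not overlap. The intervals of Cish and of 1 Jak2 probe set lie above 0 and the other 23 include it.

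**Figure D4:**
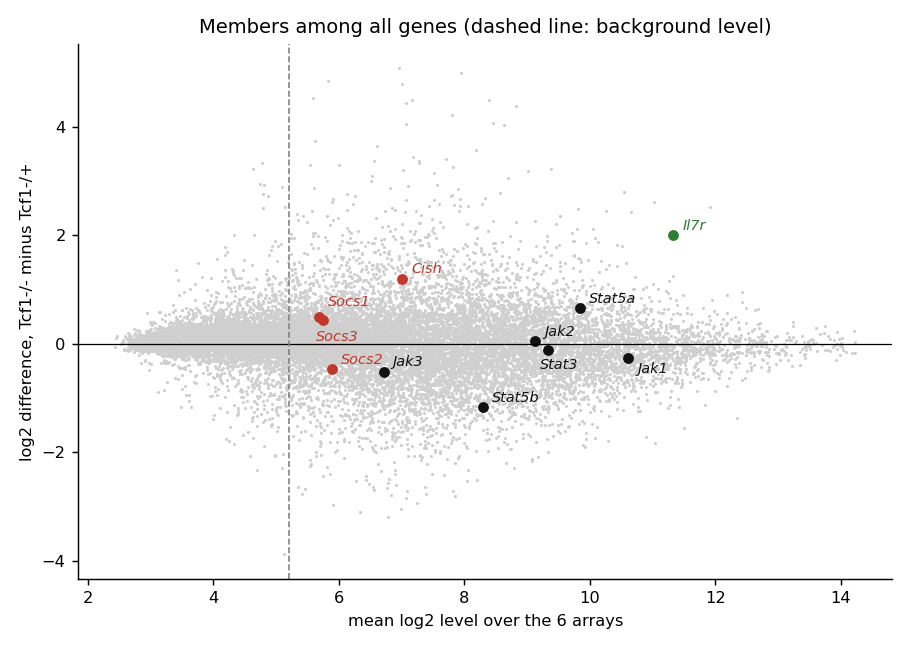
Mean log2 level over the 6 arrays against the difference between genotypes for 18193 genes (grey), with the inhibitors in red, the kinases and STATs in black and Il7r in green. Cish at 1.20 and Stat5b at -1.16 lie farthest from 0 among the members, and the dashed line is the background of 5.21.

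The pathway around the members was described with lists of ligands, receptors, further regulators and target genes. None of the genes in these lists passed an adjusted p of 0.05. Apart from Il7r, Bcl2 and Pim1, the genes named are the 3 of smallest unadjusted p in each list, and so were chosen by their values. Of 28 cytokine receptor genes that signal through JAKs, 26 were measured, 15 with a higher and 11 with a lower Tcf1-/- mean and a median of 0.01. At an unadjusted p under 0.05 there were 4 with a higher and 0 with a lower mean, against 3.38% and 3.4% of all genes. The receptor chain gene Il7r had both probe sets higher without overlap, by 2.00 (SE 0.40) and 3.14 (SE 0.49). Its brightest was at 11.91, 13.20 and 11.87 in Tcf1-/- and at 10.25, 10.54 and 10.21 in Tcf1-/+. Tcf1-/- replicate 2 was the highest of the 6 arrays, as for Cish. Il2rg, which encodes the common gamma chain, was not analysed here.

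Ifngr2, a chain of the interferon gamma receptor, differed without overlap on its brightest probe set, by 1.35 (SE 0.32), and by -0.22 (SE 0.24) on the other. Il12rb1, a chain of the interleukin 12 and 23 receptors, differed by 1.97 (SE 0.64) without overlap, and by 0.583 on the 3 arrays of low Y-linked signal. The other receptor with an unadjusted p under 0.05 was Il2rb, which encodes the interleukin 2 and 15 receptor beta chain and was named outside this rule after its values were seen, with a difference of 2.36 (SE 0.90) and overlapping genotypes. Likewise named outside it, Epor and Il27ra did not overlap, with differences of 1.16 (SE 0.53) and 0.77 (SE 0.32), and the Tcf1-/+ mean of Epor lay under background. Of 9 ligand genes, 6 had both means under background, Il7 among them. Osm differed by -0.69 (SE 0.59), Lif by 0.44 (SE 0.79) and Il15 by -0.04 (SE 0.32).

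Among the other JAK and STAT genes, 4 of 5 were measured and the genotypes overlapped for all 4. Tyk2, the remaining JAK kinase gene, differed by 0.24 (SE 0.63), Stat2 by -0.38 (SE 0.59) and Stat6, which acts after interleukin 4, by -0.08 (SE 0.28). The 15 other negative regulators had 7 higher and 8 lower means, with a median of -0.02. Socs6 was at 6.43, 6.89 and 7.01 in Tcf1-/- and at 8.10, 8.38 and 7.05 in Tcf1-/+. Every Tcf1-/- array was lower, though narrowly against Tcf1-/+ replicate 3, with a difference of -1.07 (SE 0.40) and an adjusted p of 0.742 from limma. Its other probe sets differed by -0.99 (SE 0.86) and 0.21 (SE 0.52). Sh2b3, which encodes the adaptor LNK, differed by -1.16 (SE 0.48) on 1 probe set and by -0.01 (SE 0.63) on the other, and Socs5 by -0.58 (SE 0.30). Pias4, a SUMO ligase gene named outside the rule after its values were seen, also did not overlap, with a difference of -0.32 (SE 0.24). These 2 of 15 genes without overlap and with lower means stand beside 4.94% of all genes. Of 8 STAT adaptors and cofactors, Nmi differed by 0.80 (SE 0.58), Sh2b1 by 0.53 (SE 0.39) and Stam2 by -0.41 (SE 0.39), and the genotypes overlapped for all 8. Nmi was 1.48 without Tcf1-/- replicate 2, 0.438 without replicate 1 and 0.482 without replicate 3 of that genotype, and Sh2b1 was 0.152 without Tcf1-/+ replicate 3.

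Of 12 known STAT5 target genes outside the members, 6 had higher and 6 lower means, with a median of -0.03. Bcl2, the anti-apoptotic gene, was at 12.30, 12.17 and 12.55 in Tcf1-/- and at 11.29, 11.39 and 11.90 in Tcf1-/+. All 5 of its probe sets were higher without overlap, by 0.81 (SE 0.25) on the brightest and by 1.25 to 1.86 on the others. Lta, which encodes lymphotoxin alpha, differed by 2.01 (SE 0.55) without overlap, from a Tcf1-/+ mean under background, and by 1.32 on the 3 arrays of low Y-linked signal. Myc, a driver of growth, differed by -0.88 (SE 0.41) and the kinase gene Pim1 by -0.17 (SE 0.55), both with overlap. Promoters were matched for 9 of the 12 genes. The STAT core was found in 3 of their 14 promoters (21.4%), all of Lta or Bcl6, against 8.3% of all promoters. Of 8 known STAT3 target genes, 7 were measured, 4 with higher and 3 with lower means. Fosl2, an AP-1 factor gene, differed by 2.56 (SE 0.62) without overlap and by 1.09 on those 3 arrays, Batf by -1.11 (SE 0.55) and Ier3 by -0.79 (SE 0.55).

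**Figure D5:**
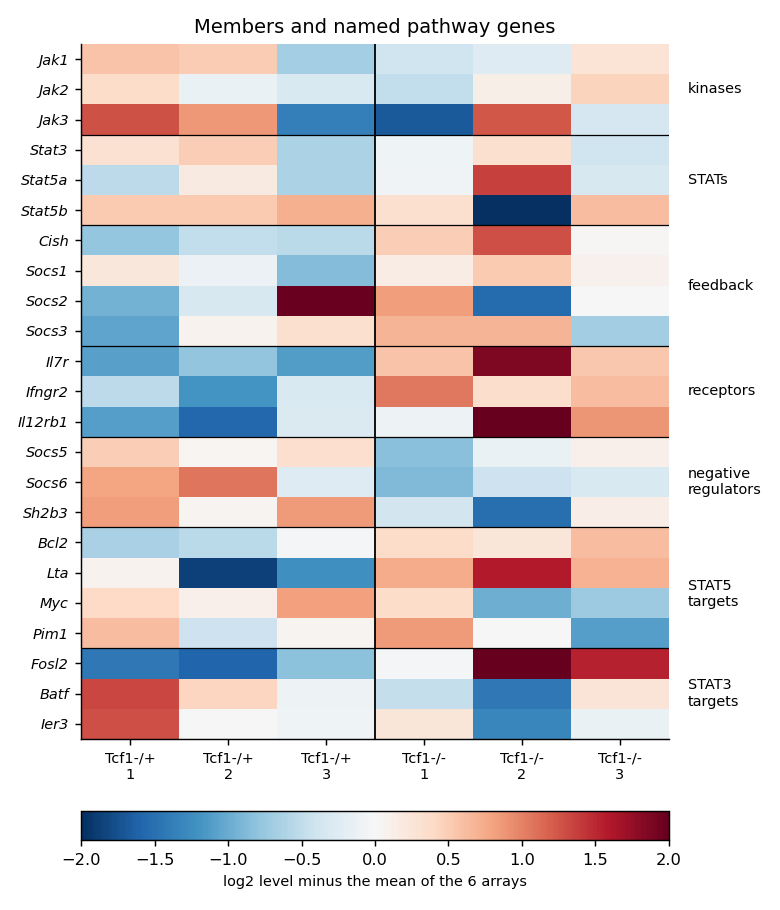
Log2 level of the brightest probe set minus its mean over the 6 arrays, with Tcf1-/+ arrays on the left, Tcf1-/- on the right and genes in rows by role, and colours limited to values from -2 to 2. Cish, Il7r and Bcl2 are all higher on every Tcf1-/- array than on every Tcf1-/+ array, while Socs2, Jak3 and Stat5b vary between arrays of the same genotype.

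The gene whose values over the 6 arrays lay closest to those of Cish was Stat5a, with a mean absolute difference of 0.33 between centred log2 values. It was followed by Il7r at 0.40 and Il27ra at 0.40, among 81 genes of the members and lists that were above background in at least 1 genotype. The comparison used brightest probe sets, and a gene that varies little can also have a small value. The likeness with Stat5a rested in part on Tcf1-/- replicate 2, the highest array on both. The other Stat5a probe set did not share this, with Tcf1-/- arrays at 9.65, 8.51 and 9.11, so that replicate 2 was the lowest of them. Tcf1-/+ arrays were there at 9.35, 8.40 and 10.14.

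Markers of other cells were described in the same way. Of 14 natural killer and innate lymphoid markers, 12 were measured and 9 had higher Tcf1-/- means, 5 of them without overlap, and 3 had lower means, 1 of them without overlap. Over all genes 54.3% had a higher mean, 7.22% were higher without overlap and 4.94% lower. The marker that was lower without overlap was Klrd1, a natural killer receptor gene, at 6.33 and 7.82 on average. Their mean level was 7.83 to 8.70 in Tcf1-/- and 6.48 to 7.23 in Tcf1-/+, with Ncr1 and Tbx21, both defining genes of natural killer cells or type 1 innate cells, under background in both genotypes. For 9 of 10 markers of later T cells the mean level was 6.36 to 6.66 in Tcf1-/- and 6.55 to 6.98 in Tcf1-/+, with Ptcra and Cd8b1 under background in both. For 9 of 9 myeloid markers it was 7.31 to 8.75 and 6.65 to 8.54, with Itgam and Cd14 under background in both. For 5 of 7 erythroid markers it was 6.36 to 7.42 and 4.65 to 6.77, with Hba-a1 under background in both. The 7 stromal markers were at 5.50 to 5.56 and 5.06 to 5.35, with Col3a1, Pdgfra and Foxn1 under background in both. For 6 of 7 B-lineage markers the level was 5.55 to 6.03 and 5.45 to 5.86, with Ebf1 and Blnk under background in both, and for 7 of 7 dendritic markers it was 7.24 to 8.03 and 7.62 to 8.86. Single genes in these lists did not overlap. Of the later T cell markers, Cd4 was higher without overlap, with a difference of 2.93 (SE 0.61), and Cd5 lower, with -1.12 (SE 0.38). Also without overlap, 1 myeloid and 1 erythroid marker were higher and 2 dendritic markers lower. The list of the sort gate and of early progenitors was lower without overlap, at 10.31 to 10.56 against 10.71 to 10.84. Within it 3 genes had higher and 4 lower Tcf1-/- means. Kit and Cd44 overlapped between genotypes, Cd34 and Flt3 were lower without overlap, and Il7r was higher without overlap. Of the lists of other cells, the natural killer and innate lymphoid list and the stromal list did not overlap between genotypes, both higher in Tcf1-/-. The stromal levels lay near the background of 5.21, and 1 stromal gene, Pdgfra, was higher without overlap. The part of these cells in the values of Cish, Il7r, Il2rb and Bcl2 was not tested. A larger share of cells with a transcript and more transcript per cell cannot be told apart in RNA of pooled cells.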

How the data were processed

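The authors deposited log2 values per probe set for 6 arrays, between 2.15 and 14.81. The log2 scale was read from the values. Their summarization and normalization are not given in the sources used. Values were used as deposited, and array medians lay between 5.80 and 5.87. Arrays have no read depth, and their number limits the precision. Of 45101 probe sets, 64 controls were left out. The platform annotation gave 1 symbol to 34945 probe sets, several to 932 and none here to 9160. Of the first kind, 34741 matched the RefSeq gene table by identifier. Unused value columns numbered 0.

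The genotype difference was fitted across all probe sets by lmFit and eBayes of limma 3.58.1 (R 4.3.3), two-sided and without covariates, after a trial on simulated data. Deviations of same-numbered arrays from their genotype means correlated between 0.01172 and 0.04451, so numbers were not taken as pairs. The members and lists were chosen with earlier results of these data known. Named pathway genes are the 3 of smallest unadjusted p in each list with a mean above background in at least 1 genotype, plus Il7r, Bcl2 and Pim1. Listed genes without a value are not reported here.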

Additional observations from a re-analysis of the deposited data

How the results depend on the processing

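The fit was repeated over 18 alternatives. For the arrays of low Y-linked signal, which hold 1 of Tcf1-/-, only differences are given. In the other alternatives in which probe sets were counted, 0 passed the adjusted threshold, members included. Among these, the lowest count at an unadjusted p under 0.05 was 1990, of the 28005 probe sets with a mean above background. The highest was 3487 of 45037, without Tcf1-/- replicate 3. With the replicate number as a block, the count stayed at 0 and the Cish difference was 1.2, with an adjusted p of 0.684 from limma, and no call changed. Cish was between 0.856 and 1.49 with an array left out, and between 1.06 and 1.23 with quantile normalization, a common median, array weights, the Y-linked covariate or the arrays of low Y-linked signal. The other alternatives change its test, or other probe sets, and cannot move its difference. Its adjusted p-values from limma or the unmoderated test lay between 0.435 and 0.97. Of the 10 members, 6 kept their direction in the alternatives that gave them a value, of which several cannot move a difference. Jak2 turned to -0.0191 with Y-linked level as covariate and to -0.527 on the 3 arrays of low Y-linked signal. Stat3 was 0.075 on those arrays, 0.119 as the mean over its probe sets and 0.12 on its brightest plain probe set, and Socs2 was 0.314 on those arrays. Outside the members, Pim1 was 0.156 with the covariate, 0.521 on those arrays and 0.00821 over its probe sets. Tyk2 was -0.0741 with the covariate, Osm 0.724 on those arrays and Stam2 0.00488 over its probe sets. With arrays left out in turn, differences ranged from -0.165 to 0.31 for Jak2, -1.33 to 0.197 for Jak3, -0.451 to 0.111 for Stat3 and -1.06 to 0.397 for Socs2. They ranged from -0.273 to 0.183 for Il15, -0.32 to 0.969 for Lif, -0.637 to 0.342 for Pim1, -0.731 to 0.213 for Stat2, -0.226 to 0.152 for Stat6 and -0.457 to 0.801 for Tyk2. They kept their sign but moved by over 1.5 times for Jak1, from -0.669 to -0.0466, Stat5a, 0.136 to 0.98, Stat5b, -1.76 to -0.118, Socs1, 0.193 to 0.743, Socs3, 0.0299 to 0.905, Nmi, 0.438 to 1.48, Sh2b1, 0.152 to 0.8, Stam2, -0.753 to -0.148, Osm, -1.32 to -0.24, Batf, -1.52 to -0.673, Ier3, -1.11 to -0.337, Sh2b3, -1.52 to -0.699, and Socs5, -0.773 to -0.31. On the arrays of low Y-linked signal Myc was -0.237 and Socs5 -1.25. The median of the STATs ranged from -0.451, without Tcf1-/+ replicate 3, to 0.111. The causes were not tested. The 3 arrays of low Y-linked signal hold 1 of Tcf1-/-, which is assumed there to vary like the others. The plain probe set alternative gave no value for Jak3, Stat5a, Stat5b, Socs1, Nmi, Ier3 and Myc. Levels near the background of 5.21 limit what can be read for Socs1, Socs2 and Socs3.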
